A study of Mus musculus with 2 samples.

Results

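The long intergenic noncoding RNAs (lincRNAs) described here are 40 of the 2777 lincRNA genes measured in a mouse erythroid cell line. They were chosen by a measured level, at least 1 TPM in both of the series' libraries, so their presence above that level is a description and not a finding. TPM is a transcript abundance scaled to transcript length that sums to 1000000 in each library. Before exclusions 47 lincRNA genes reached that level, and 7 of them were left out by name: Gm26917, Gm42418, Malat1, Neat1, Snhg6, Snhg12 and Snhg20. The gene type is that of the GENCODE annotation for the mouse assembly GRCm38, from which 42462 measured genes took a symbol.

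Polyadenylated RNA was sequenced from G1E-ER4 cells given 10 nM 17beta-estradiol for 3 h. The line is a clone of the G1E line, which grew out of mouse embryonic stem cells that lack a working Gata1 gene. The clone carries GATA1, the master transcription factor of red cell development, as a fusion with the estrogen receptor's hormone-binding part, and the hormone activates this fusion. The series has 1 group, of 2 libraries called replicate 1 and replicate 2, and no untreated sample, so no value here measures a response to estradiol. The labels number them as biological replicates but refer both to 1 and the same record of cells, and whether the spread between them is biological or technical is not known.

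A lincRNA is transcribed from DNA between protein-coding genes, usually capped, spliced and polyadenylated like a messenger RNA, but not known to encode a protein. Some lincRNAs act as RNA, for example by holding RNA-binding proteins. Others are host transcripts whose introns release microRNAs or small nucleolar RNAs, or mark a regulatory element that acts on the gene beside them. In red cell precursors such transcripts are known to be expressed in a cell-type-specific way, often beside genes that GATA1 controls.

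The libraries held 31126949 and 57853596 rounded counts in replicate 1 and replicate 2. All 8 erythroid marker genes on a list reached 1 TPM in both libraries, and none of the 4 granulocyte and monocyte, 4 lymphocyte or 4 fibroblast markers did. The summed level of the erythroid markers was 2398 TPM in replicate 1 and 17194 TPM in replicate 2, and that gap lay in the globin genes Hbb-bs, with 863 and 9484 TPM, and Hba-a1, with 149 and 6606 TPM. The other markers were mixed. Klf1, a transcription factor gene (786 and 351 TPM), and Tfrc, the transferrin receptor gene (86.5 and 20.6 TPM), were higher in replicate 1. Gfi1b, with 186 and 370 TPM, Sptb, with 172 and 197 TPM, and Ank1, with 100 and 114 TPM, were higher in replicate 2. Epor stood at 54.8 and 51.5 TPM. The libraries therefore stood apart in their globin RNA, and the part this plays in the differences between libraries given below was not tested. In bulk RNA, fewer cells that express a gene and less of its RNA in each cell cannot be told apart.

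The sequences below show what the results turn on: protein-binding motifs in the most abundant lincRNA, the small RNAs that 2 of the loci contain, the repeat inside a lincRNA that shares its sequence with neighbouring genes, and the bases that separate another from a ribosomal protein messenger RNA. The first is 2900097C17Rik, the mouse gene of NORAD, an RNA known for holding PUMILIO proteins and for keeping chromosome number stable. PUMILIO proteins bind the motif TGTANATA, where N is any base, and the transcript 2900097C17Rik-202 of GENCODE M21 holds 11 matches on its own strand. Of 42462 genes with a transcript sequence, 7 had at least as many, this gene included, while the other 39 lincRNAs had at most 1. The motif is in capitals in 4 of the 11 windows.
Site from base 651 of the transcript: agaagtcctgTGTATATAatatgaaaaa
Site from base 1147: gtaaacatgcTGTAAATAcctttttgtt
Site from base 1523: ctgactgctgTGTATATAgtggacaaca
Site from base 2754: agtactactaTGTATATAggggacaaat

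Mir142hg is the host gene of miR-142, a microRNA of blood cells. The Mir142 hairpin lies at chr11:87756864-87756927 on the plus strand, in an intron of the gene's only transcript in the tables, and Mir142b is annotated on the opposite strand of the same stretch. 4833445I07Rik holds the hairpins of miR-191, in an intron of its leading transcript, and of miR-425, beyond that transcript's end. Both hairpins lie in the single exon of its other transcript, which held 30.5% of the gene's TPM in replicate 1 and 19.3% in replicate 2. In mouse red cell precursors the decline of miR-191 is known to be needed for loss of the nucleus. The mature sequences are from RefSeq (GRCm38.p6), with the seed, bases 2 to 8, in capitals, and no pair of them shares a seed.
mmu-miR-142a-5p: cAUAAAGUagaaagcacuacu
mmu-miR-142a-3p: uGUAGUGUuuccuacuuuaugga
mmu-miR-191-5p: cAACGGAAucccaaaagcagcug
mmu-miR-425-5p: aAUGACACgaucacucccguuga
The mature microRNAs themselves were not measured in these libraries, which hold long polyadenylated RNA. The third host gene of small RNA, Epb41l4aos, holds a small nucleolar RNA in the intron of its leading transcript.

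Gm26870, at chr9:3000282-3038313 on the minus strand, is made of a tandem repeat. Its transcript Gm26870-201 matched itself best at a shift of 234 bases, with 81.5% identical bases, against a median of 30.7% over shifts from 50 to 499 bases. Sequence of this kind is known as mouse major satellite, the repeat of the chromatin beside centromeres. One unit, bases 653 to 886 of the transcript, was 98.7% identical to the next.
Unit of Gm26870-201: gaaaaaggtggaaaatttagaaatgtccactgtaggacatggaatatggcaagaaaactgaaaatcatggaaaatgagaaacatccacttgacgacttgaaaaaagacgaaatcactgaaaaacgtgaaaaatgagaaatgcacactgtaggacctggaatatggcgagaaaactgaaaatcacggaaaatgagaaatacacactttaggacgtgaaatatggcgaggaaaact

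Gm10076, at chr14:105681828-105682211 on the plus strand, is a single-exon gene of 384 bases. Bases 2 to 384 aligned without a gap to Rpl41-201, a transcript of the ribosomal protein gene Rpl41, and 381 of the 383 aligned bases were identical. Counted from 1 at the 5′ end of Gm10076-201, with the base of Gm10076 first, the substitutions were T127C and A234G. They are in capitals below.
Gm10076-201 around base 127: agtaagccagccTgtgcacctacga
Rpl41-201 at the same place: agtaagccagccCgtgcacctacga
Gm10076-201 around base 234: tagacctggaacAtcacctcgccgc
Rpl41-201 at the same place: tagacctggaacGtcacctcgccgc

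Few lincRNA genes were expressed. Without the exclusions by name, 2384 of 2769 lincRNA genes (86.1%) had no count in either library, where a count of 0 allows up to 3. Another 325 had a count but stayed under 1 TPM in both, 11 reached 1 TPM in replicate 1 alone and 9 in replicate 2 alone. The 40 that passed were 1.44% of lincRNA genes, whereas 38.6% of protein-coding genes passed the same level. They lay on 17 chromosomes, with 7 on chromosome 2 and 6 on chromosome 5.

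Just inside the threshold, Gm16001 had 1.10 TPM in replicate 1 and 5.13 TPM in replicate 2, and Gm12063 had 3.90 and 1.19 TPM. Also inside, 4833445I07Rik had 1.21 and 2.05 TPM and AA543186 had 3.15 and 1.24 TPM. Just outside it, Gm2061 had 0.98 TPM in replicate 1 and 1.10 TPM in replicate 2, and Gm15706 had 1.90 and 0.95 TPM. C030037D09Rik, at 1.40 and 0.92 TPM, and Gm28592, at 1.13 and 0.91 TPM, were also outside. For 7 of the 40, the authors' own lower bound of TPM fell under 1 in a library, so their place inside was within the error of the estimate.

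Together the 40 lincRNAs held 0.202% of all TPM in replicate 1 and 0.201% in replicate 2. Their counts ran from 20 to 16994 in replicate 1 and from 22 to 15412 in replicate 2, with medians of 172.5 and 344.5. The median of their mean TPM was 7.23, against 22.3 for the 8281 protein-coding genes that passed the same minimum. Their mean was between 1 and 10 TPM for 22, between 10 and 100 TPM for 13 and at least 100 TPM for 5. The 5 highest held 78.4% of the summed mean TPM.

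**Figure D1:**
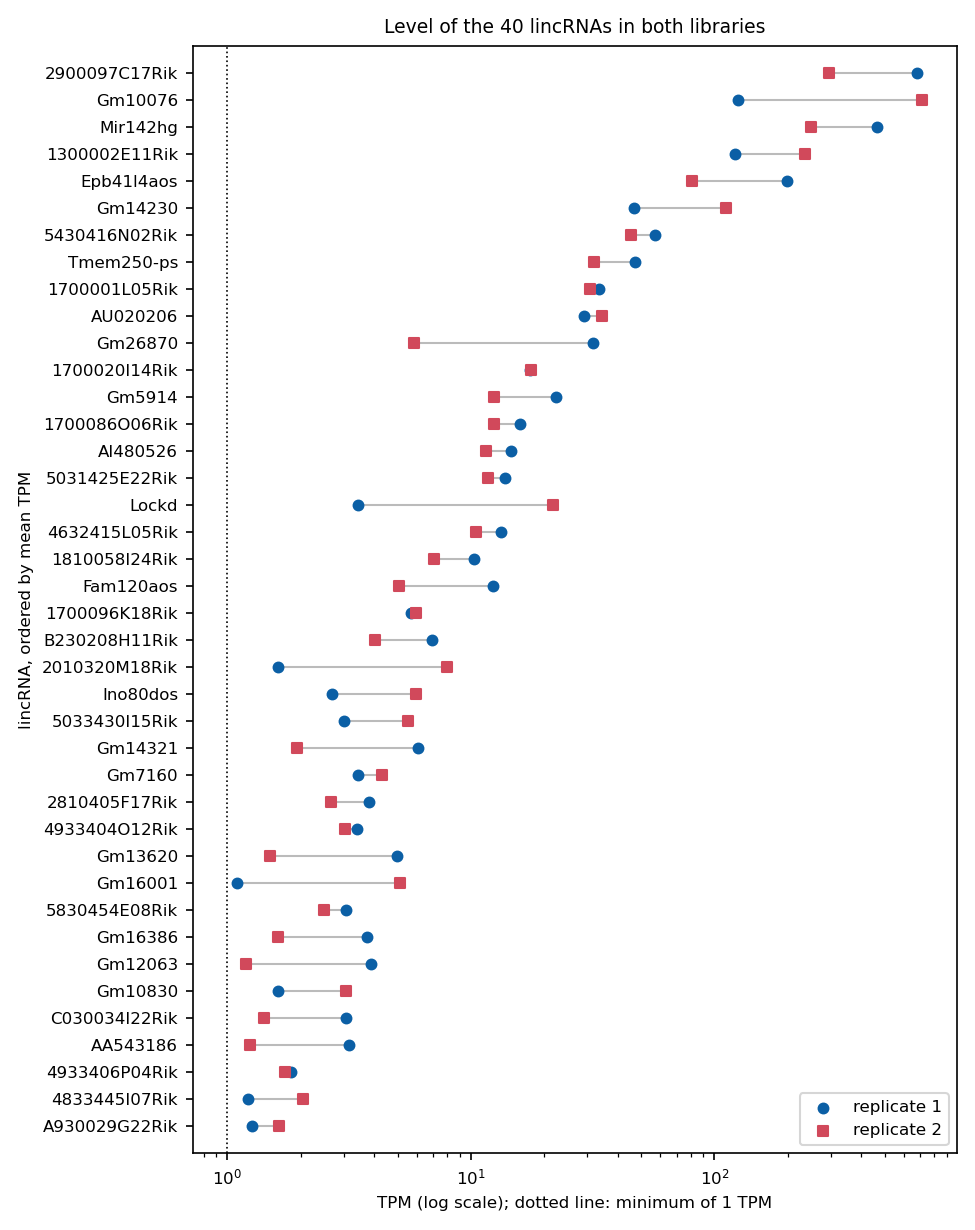
Level of each of the 40 lincRNAs (rows, ordered by mean TPM) in replicate 1 (circles) and replicate 2 (squares), on a log scale of TPM; grey lines join the libraries. The 5 highest have means of at least 100 TPM, though in replicate 2 Gm14230 (112 TPM) is above Epb41l4aos (80.5 TPM). Lockd, Gm26870, Gm10076, 2010320M18Rik and Gm16001 show the widest gaps.

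**Figure D2:**
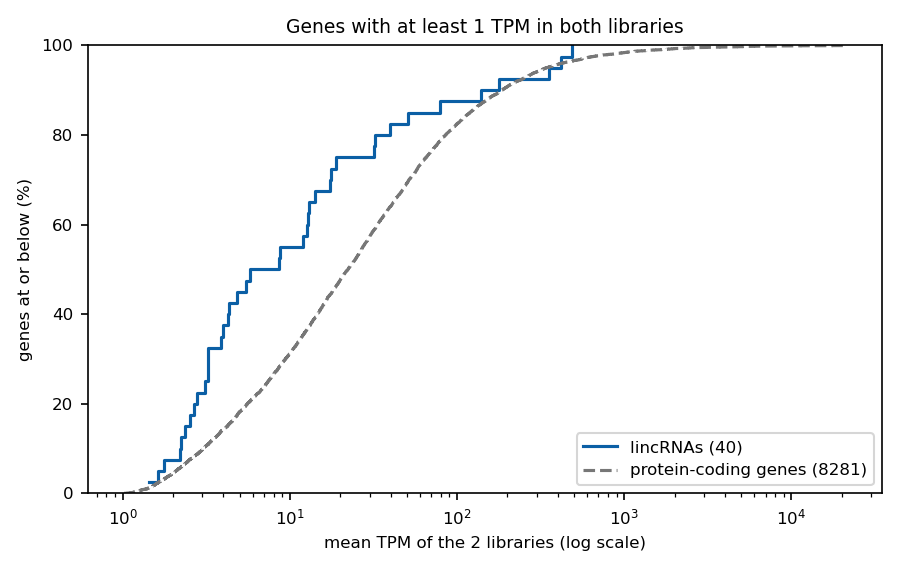
Share of genes (%, vertical axis) at or below a mean TPM (horizontal axis, log scale) for the 40 lincRNAs (solid line) and the 8281 protein-coding genes (dashed line) that reached 1 TPM in both libraries. The lincRNA curve lies to the left, with a median of 7.23 against 22.3 TPM.

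2900097C17Rik, the NORAD gene at chr2:156388065-156392979, had 677 TPM in replicate 1 and 295 TPM in replicate 2. It averaged 486 ± 270 TPM (SD, n = 2), rank 309 of all genes. The transcript model behind these values was 1149 bases long, while the same transcript is 4915 bases in GENCODE M21, so the level and the 11 motif matches rest on different models. All of the gene's TPM was assigned to that transcript in both libraries. Of the GENCODE M21 sequence, 51.6% also occurs in Gm7292, at 99.2% identity, and Gm7292 had 3.69 TPM in replicate 1 and 0.83 TPM in replicate 2. The counts of 2900097C17Rik, 16994.4 and 15412.2, were not whole, as for Gm10076 below, so its level carries the same uncertainty.

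Mir142hg had 465 TPM in replicate 1 and 249 TPM in replicate 2, from 1530 and 1525 counts, and averaged 357 ± 153 TPM (SD, n = 2). 1300002E11Rik, a lincRNA of chromosome 16 that overlaps Map3k13 on the same strand, had 122 and 234 TPM. Map3k13, a kinase gene, had 0.01 and 0.04 TPM. Epb41l4aos, the snoRNA host beside Epb41l4a on chromosome 18, had 199 TPM in replicate 1 and 80.5 TPM in replicate 2, while Epb41l4a itself had 0 TPM in both. These 3 were among the 5 highest in mean TPM, and both host genes among them, Mir142hg and Epb41l4aos, were higher in replicate 1.

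Gm10076, the near copy of Rpl41, had 125 TPM in replicate 1 and 713 TPM in replicate 2. Rpl41 had 1023 TPM and 14400 TPM in the same libraries. Both were higher in replicate 2, Gm10076 by 6.86-fold and Rpl41 by 17.1-fold in scaled counts, which are counts divided by library sizes corrected with TMM factors. The count of Gm10076 was not whole in either library, as when reads that match several transcripts are divided between them, so its level is uncertain.

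The next members by mean TPM were spread over the genome. Gm14230 had 46.7 TPM in replicate 1 and 112 TPM in replicate 2. 5430416N02Rik had 56.9 and 45.5 TPM, Tmem250-ps, annotated as a lincRNA despite the pseudogene suffix of its name, 47.1 and 31.9 TPM, and 1700001L05Rik 33.7 and 31.0 TPM. AU020206 had 29.0 TPM in replicate 1 and 34.7 TPM in replicate 2. Of these 5, Gm14230 alone differed more than 2-fold between the libraries.

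Gm26870, the satellite-like transcript, had 31.7 TPM in replicate 1 and 5.83 TPM in replicate 2, from 811 and 311 counts. Sequence of at least 95% identity over at least 100 bases joined it to 9 other measured genes. The 6 of these with a summed count of at least 20 were all at least 2-fold higher in replicate 1, with log2 ratios from 1.58 to 2.84. Gm10718, for example, had 8.93 TPM in replicate 1 and 1.47 TPM in replicate 2. The counts of Gm26870 itself were whole, and whether reads were divided among these 7 genes was not tested, so they may not be separate measurements.

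The remaining 4 of the 15 highest lay between 11.5 and 22.4 TPM. 1700020I14Rik had 17.5 TPM in replicate 1 and 17.7 TPM in replicate 2, and Gm5914 had 22.4 and 12.4 TPM. 1700086O06Rik had 16.0 and 12.4 TPM, and AI480526 had 14.6 and 11.5 TPM. Gm5914 shares 370 exonic bases with the opposite strand of Ctcf, the gene of the insulator protein CTCF, which had 412 and 199 TPM. Both genes were higher in replicate 1, by 1.52-fold for Gm5914 and 1.65-fold for Ctcf in scaled counts. The count of Gm5914 in replicate 2, 126.54, was not whole.

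The other 25 lincRNAs had means of at most 12.8 TPM, and those without values here are given with their ratios or neighbours. 4632415L05Rik had 13.3 TPM in replicate 1 and 10.5 TPM in replicate 2, 1810058I24Rik 10.3 and 7.04 TPM, and B230208H11Rik 6.89 and 4.04 TPM. 1700096K18Rik had 5.66 and 5.93 TPM, Gm16386 3.73 and 1.62 TPM, and 2810405F17Rik 3.82 and 2.67 TPM. 4933404O12Rik had 3.42 TPM in replicate 1 and 3.05 TPM in replicate 2, and Gm10830 had 1.61 and 3.08 TPM. Ino80dos had 2.70 and 5.95 TPM. It shares 431 exonic bases with the opposite strand of Ino80d, a subunit gene of the INO80 chromatin remodeller with 5.66 and 4.08 TPM, and 489 with that of Ndufs1, a gene of respiratory complex I with 38.5 and 89.8 TPM. The log2 ratio of Ino80dos was -1.06, against -0.37 for Ino80d and -0.90 for Ndufs1.

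The libraries were compared gene by gene with log2 ratios of scaled counts, replicate 1 over replicate 2, with a prior count of 2. A 99% exact interval (Clopper-Pearson) covers counting error only, so these ratios compare 2 libraries and not conditions. All 40 had a summed count of at least 20, the minimum for a ratio. Of the 40, 4 (10.0%) were at least 2-fold higher in replicate 1 and 9 (22.5%) at least 2-fold higher in replicate 2. The balance turned with the scaling: library totals gave 9 higher in replicate 1 and 6 in replicate 2, and ratios of TPM gave 7 and 5 with a pseudocount of 1 or 10 and 6 with 0.1. Over the 10578 genes with that count, the shares were 7.24% and 19.4%, and over the 8729 that also had 1 TPM in both libraries they were 5.61% and 18.0%. The interval excluded equality for 29 of 40 (72.5%), against 75.8% and 82.3% of these sets of genes, so the share of lincRNAs that differed was near the background. The median absolute log2 ratio was 0.77 for the lincRNAs and 0.55 for protein-coding genes with 1 TPM in both. The lincRNAs and those genes were not matched for level or count, and the part of counting error in this gap was not tested.

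**Figure D3:**
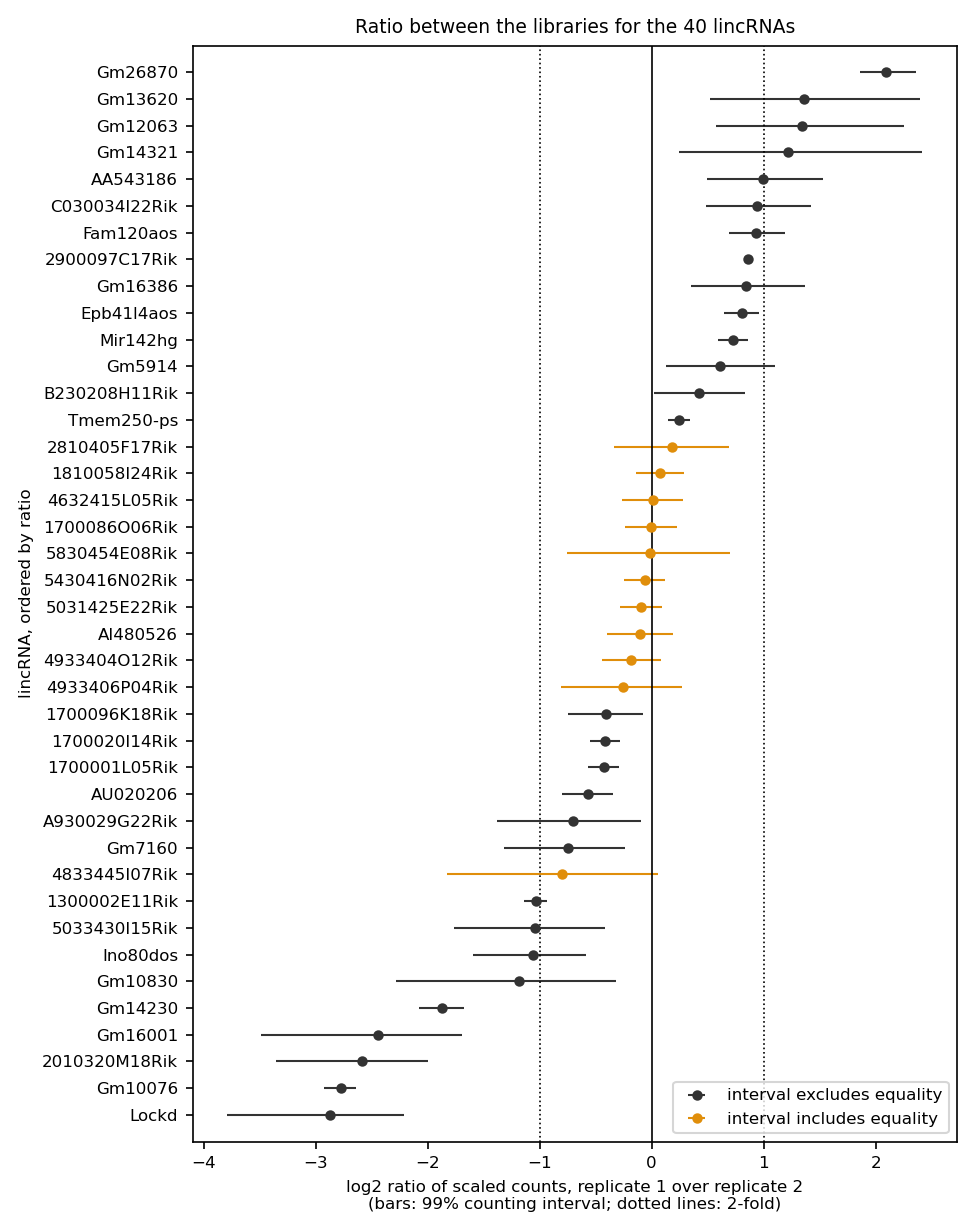
Log2 ratio of scaled counts, replicate 1 over replicate 2, for each of the 40 lincRNAs (rows, ordered by ratio), with 99% counting intervals as bars and dotted lines at 2-fold. Lockd lies lowest at -2.87 and Gm26870 highest at 2.10, and 11 intervals include equality.

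Lockd had the largest difference. This lincRNA lies downstream of Cdkn1b, the gene of the cell cycle inhibitor p27, and in mouse erythroid cells its locus is known to hold an enhancer of that gene. It had 3.44 TPM in replicate 1, from 26 counts, and 21.8 TPM in replicate 2, from 330 counts. That was 7.33-fold higher in replicate 2 (log2 ratio -2.87, interval -3.79 to -2.21). Cdkn1b, 3579 bases away on the same strand, had 76.1 TPM in replicate 1 and 47.3 TPM in replicate 2, and was 1.21-fold higher in replicate 1 (0.27, interval 0.20 to 0.34). The lincRNA and its neighbour thus differed between libraries in opposite directions. The model of Lockd-201 behind these values was 441 bases long and is 5662 bases in GENCODE M21.

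2010320M18Rik had 1.62 TPM in replicate 1 and 7.99 TPM in replicate 2, 6.0-fold higher in replicate 2 (log2 ratio -2.59, interval -3.36 to -1.99). Gm16001 had 1.10 and 5.13 TPM, 5.43-fold higher in replicate 2, and Gm14230 was 3.66-fold higher in replicate 2. Smaller differences in that direction were those of Gm10830 (2.27-fold), Ino80dos (2.08-fold), 5033430I15Rik (2.06-fold) and 1300002E11Rik (2.05-fold). Of these, 1300002E11Rik rested on the most reads, 1755 in replicate 1 and 5931 in replicate 2, and Gm10830 on the fewest, 20 and 78. The intervals of the 4 smaller differences reached below 2-fold, and with library totals the log2 ratio was -0.86 for 1300002E11Rik, -0.89 for Ino80dos and -0.87 for 5033430I15Rik, all under 2-fold.

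In the other direction Gm26870 was 4.28-fold higher in replicate 1 (log2 ratio 2.10, interval 1.86 to 2.36). Gm13620 had 4.95 TPM in replicate 1 and 1.49 TPM in replicate 2, 2.57-fold higher in replicate 1. Gm12063 had 3.90 and 1.19 TPM, 2.53-fold higher, and Gm14321 had 6.08 and 1.94 TPM, 2.32-fold higher. These last 3 rested on few reads, with 46 and 28 counts for Gm13620, 56 and 35 for Gm12063 and 33 and 22 for Gm14321, and their intervals also reached below 2-fold. Other lincRNAs higher in replicate 1 beyond counting error included AA543186 (1.99-fold), C030034I22Rik (1.91-fold), Fam120aos (1.91-fold), 2900097C17Rik (1.82-fold), Gm16386 (1.80-fold), Epb41l4aos (1.75-fold) and Mir142hg (1.65-fold).

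For 11 lincRNAs the interval included equality. Some were closely bounded: 5430416N02Rik had 691 counts in replicate 1 and 1191 in replicate 2, with a log2 ratio of -0.06 (interval -0.24 to 0.12). 4632415L05Rik, with 311 and 510 counts, stood at 0.01 (interval -0.26 to 0.28), and 1810058I24Rik, with 508 and 796 counts, at 0.07 (interval -0.14 to 0.29). These bounds hold for TMM scaling. On TPM with a pseudocount of 1 the ratios were 0.32, 0.31 and 0.49, above the upper bounds, and with library totals the interval of 1810058I24Rik, at 0.25, excluded equality. By contrast 4833445I07Rik, the host of miR-191, stood at -0.80 from 23 and 68 counts, with an interval from -1.83 to 0.06, which does not show that the libraries were alike.

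Reads of a lincRNA that overlaps another gene on the opposite strand can be told apart only if strand was used in counting, which is not given in the sources used here. Counts were whole in both libraries for 37 of the 40, but not for Gm10076, 2900097C17Rik and Gm5914. Whole counts included those of C030034I22Rik (143 and 122) and A930029G22Rik (49 and 133), which overlap each other on opposite strands. What whole counts say about the use of strand was not tested. Exons of 16 lincRNAs overlapped exons of another gene, and 24 had no such overlap. For 8 the other gene also reached 1 TPM in both libraries, in 9 ordered pairs, of which 5 had the same sign of ratio. The pair C030034I22Rik and A930029G22Rik is counted in both orders. Among the 5 is 1700086O06Rik with Dele1, where the lincRNA's sign was not settled (log2 ratio -0.005, interval -0.24 to 0.23). Gm13620 shares 238 bases with Baz2b, a bromodomain gene with 36.7 and 39.6 TPM, and their ratios had opposite signs (1.36 and -0.72). C030034I22Rik, with 3.06 and 1.41 TPM, and A930029G22Rik, with 1.26 and 1.63 TPM, are both members and share 733 exonic bases on opposite strands. The first was higher in replicate 1 (log2 ratio 0.94) and the second in replicate 2 (-0.70), though with library totals the second stood at -0.53 with an interval that included equality.

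Of the 40 lincRNAs, 24 had more than 1 transcript in the tables, and in all 24 the same transcript led in both libraries. The leading transcript held at least 80% of the gene's TPM in both libraries for 11. Its share differed by at most 10 percentage points for 13 and by more than 20 points for 3. Epb41l4aos-201 held 57.5% of its gene's TPM in replicate 1 and 89.2% in replicate 2, while Ino80dos-203 held 98.96% and 55.22%. The third was 5033430I15Rik-201, with 84.2% in replicate 1 and 62.6% in replicate 2. In replicate 1 and replicate 2, Epb41l4aos had 1182 and 1115 counts, Ino80dos 74 and 257, and 5033430I15Rik 42 and 145. The error of the shares was not estimated, and the shares of the last 2 genes rest on few reads in replicate 1. The median lead share was 81.9% in replicate 1 and 83.2% in replicate 2.

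All 40 leading transcripts were found by identifier in GENCODE M21, 32 with the same length as in the tables. They ran from 269 to 5662 bases, and 12 had a single exon. Taking each gene's longest transcript, 32.5% of the 40 had a single exon, against 6.56% of the 2729 other lincRNAs and 6.26% of protein-coding genes with 1 TPM in both. The polyadenylation signal AATAAA stood in the last 50 bases of the longest transcript in 45.0% of the 40, 29.3% of the other lincRNAs and 58.7% of those protein-coding genes. The variant ATTAAA, where AATAAA was missing, was held by 8 of the 40, by 9.64% and by 14.1%. These shares are descriptions with no test, over transcripts that the RNA selection can reach in different degrees.

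The ends of 3 abundant lincRNAs show the signal, in capitals, shortly before the annotated end.
Mir142hg-201: gccctcaacactAATAAAgaatggactggt
1700001L05Rik-203: gccatgagccaaAATAAAtctttattcatt
Tmem250-ps-201: ggaatcacctgcATTAAAcctattttttta
In these transcripts 14, 15 and 18 bases followed the signal. The model of 1700001L05Rik-203 behind its level was 1290 bases long and is 4969 bases in GENCODE M21, so the printed end and the level rest on different models. Among the leading transcripts, 19 held AATAAA, 6 held ATTAAA and 15 held neither in this window.

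The 40 lincRNAs often lay close to protein-coding genes. The median distance to the nearest one was 1349.5 bases, against 40300 bases for the 2729 other lincRNAs, and the nearest gene reached 1 TPM in both libraries for 67.5%, against 29.5%. A protein-coding gene started on the opposite strand, pointing away, within 5 kb of the start of 12 (30.0%), against 8.13% of other lincRNAs. Within 1 kb it was 11 (27.5%), against 6.01%, with 22 to 527 bases between the starts. The level that chose the lincRNAs and the expression of their surroundings may not be independent, and these shares were not tested.

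Of the 11 partners within 1 kb, 10 reached 1 TPM in both libraries, and 7 of the 10 lincRNAs were lower than their partner in both. Gm14230 lies 115 bases from the start of Tgif2, a repressor of TGF-beta signalling, which had 30.2 TPM in replicate 1 and 55.3 TPM in replicate 2, below the lincRNA's 46.7 and 112 TPM. AI480526 lies 527 bases from Setd1b, a histone H3 lysine 4 methyltransferase, at 131 and 69.3 TPM. 5031425E22Rik, with 13.8 and 11.8 TPM, lies 172 bases from Kmt2e, a gene of the same broad family, at 8.82 and 7.12 TPM. Fam120aos, with 12.3 and 5.05 TPM, lies 270 bases from Fam120a, an RNA-binding protein gene, at 189 and 175 TPM.

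2010320M18Rik lies 102 bases from Pik3r2, a regulatory subunit of PI3 kinase, which had 66.9 TPM in replicate 1 and 43.3 TPM in replicate 2. The lincRNA was 6.0-fold higher in replicate 2, while Pik3r2 was 1.37-fold higher in replicate 1. Gm16001 lies 33 bases from Ogfod2, at 23.5 and 27.5 TPM, and was 5.43-fold higher in replicate 2, while Ogfod2 was 1.18-fold higher there. 5033430I15Rik, with 3.02 and 5.54 TPM beside the ataxin gene Atxn1 at 2.50 and 2.48 TPM, and Gm7160, with 3.45 and 4.30 TPM beside Zcchc2 at 28.2 and 19.7 TPM, complete the 8 most abundant lincRNAs of such pairs. 4933406P04Rik, with 1.83 and 1.72 TPM, stood beside Bclaf1, a transcription factor gene with 15.9 and 13.0 TPM, and 4833445I07Rik beside Ndufaf3, a gene for assembly of respiratory complex I with 12.2 and 17.3 TPM. A930029G22Rik starts 22 bases from Akain1, which had 0.02 TPM in replicate 1 and 0 TPM in replicate 2. Across the 10 pairs the ratios had the same sign in 5, and Pearson's r of the log2 ratios was 0.02 over these 10 pairs, which share their libraries. The interval included equality for AI480526, 5031425E22Rik, 4933406P04Rik, 4833445I07Rik and the partner Kmt2e, so the signs of these were not settled. With library totals AI480526 stood at 0.07, against -0.10 with TMM factors.

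**Figure D4:**
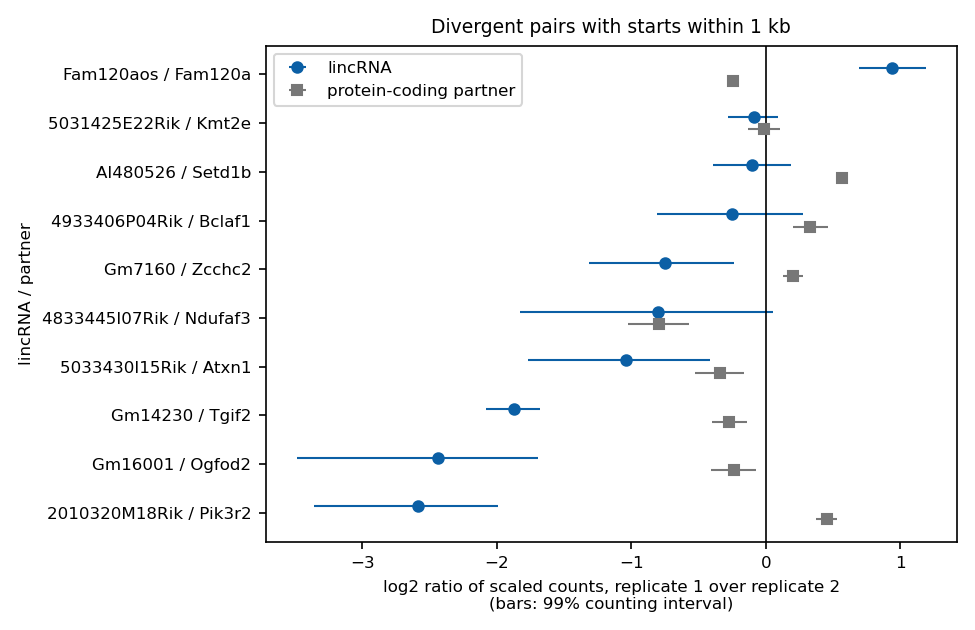
Log2 ratio of scaled counts, replicate 1 over replicate 2, for 10 lincRNAs (circles) and the protein-coding gene that starts within 1 kb on the opposite strand (squares), with 99% counting intervals as bars. The lincRNAs run from -2.59 to 0.94 and the partners from -0.79 to 0.56.

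Over all 27 lincRNAs whose nearest protein-coding gene reached 1 TPM in both libraries, 20 were below that gene in mean TPM and 7 above it. The signs of the ratios were equal in 14 of 27, and Pearson's r was -0.15 over these 27 pairs, again from shared libraries. The 27 include the divergent pairs above whose signs were not settled. 2 lincRNAs lay within 100 kb of a gene on a list of 36, mostly genes of transcription, cell cycle, survival and signalling. The same count was not made for the other lincRNAs, so it has no background here. One of the 2 was Lockd. The other was Gm12063, which ends 689 bases before Bcl11a on the same strand. Bcl11a, the repressor of fetal-type globin genes, had 97.5 TPM in replicate 1 and 79.9 TPM in replicate 2, with a log2 ratio of 0.00 (interval -0.05 to 0.06), while Gm12063 stood at 1.34 (interval 0.58 to 2.25).

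RefSeq promoter windows, 250 bases before to 50 bases after the gene's start on GRCm38.p6, matched 22 of the 40 by symbol, and 15 of these starts lay within 100 bases of the leading transcript's start. The motifs searched on both strands were the GATA-type letters AGATAA or AGATAG, either also with T in the first place, and the E-box CANNTG. A GATA-type match stood in 4 of 22 windows (18.2%), against 29.8% of all 32851 promoters. An E-box stood in 72.7%, against 72.3%. A ratio of observed to expected CpG of at least 0.6 was found in 77.3%, against 35.8%. The median GC content of the windows was 61.0%, against 52.7%. The 32851 promoters were not chosen by expression, as the lincRNAs were, and none of these shares was tested. A match is a description of letters and not a bound site. The window of 5830454E08Rik, at chr9:120577081-120577380 on the plus strand, is printed because GATA1 is the factor that the cells carry and because it held 2 matches beside the leading start. They are in capitals, the first read on the opposite strand.
5830454E08Rik: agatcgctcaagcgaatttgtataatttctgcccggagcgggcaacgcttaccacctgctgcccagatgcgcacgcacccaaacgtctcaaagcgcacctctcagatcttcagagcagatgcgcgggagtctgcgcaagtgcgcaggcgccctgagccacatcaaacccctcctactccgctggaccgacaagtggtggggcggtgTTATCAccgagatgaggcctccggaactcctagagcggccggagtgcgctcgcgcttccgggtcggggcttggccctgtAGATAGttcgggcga
5830454E08Rik, downstream of the ribosomal protein gene Rpl14 on the same strand, had 3.07 TPM in replicate 1 and 2.49 TPM in replicate 2, with a log2 ratio of -0.01 (interval -0.76 to 0.70).

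A list of 47 symbols of long noncoding RNAs, most with known roles, was also looked up, and 39 of the symbols were in the tables. Norad and Chaserr were among those not found by that name, but their genes were measured as 2900097C17Rik and 1810026B05Rik. Of the 20 with the lincRNA type, 5 were members: 2900097C17Rik, Mir142hg, Epb41l4aos, 1700020I14Rik and Lockd. Another 4 had no count, and the rest stayed under 1 TPM in a library, among them Mir17hg, the host of the miR-17 cluster, with 0.49 and 0.19 TPM. Of the 19 that GENCODE gives another type, and which the rule therefore leaves out, 9 reached 1 TPM in both libraries. These included Tug1, at 59.8 and 18.4 TPM, and Terc, the RNA template of telomerase, at 21.2 and 8.80 TPM.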

How the data were processed

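For each library 2 deposited tables, of genes and of transcripts, were used. Reads were aligned to mm10 and quantified on GENCODE M4 per the text deposited with the tables; which aligner and quantifier were used, and whether strand was, is not given in the sources used here. Per the file headers, the authors' expected counts are estimated fragments per gene and are not normalised. The authors' TPM and FPKM values are scaled to transcript length, and the deposited percent values give each transcript's share of its gene's TPM. The authors' TPM bounds are a signal-like range deposited beside each TPM. Effective length was not used in a result.

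GENCODE M21 on GRCm38 gave coordinates, types and transcript sequences, and RefSeq gave promoters and microRNAs. Expected counts were rounded for ratios. TMM factors came from edgeR 4.0.16 and the alternative size factors from DESeq2 1.42.0. Shared sequence was searched with blastn 2.17.0 (at least 95% identity over at least 100 bases). With 1 group and 1 library on each side, no test between conditions exists. The interval was tested on simulated data whose only noise was counting error, so that test does not bear on reads divided between genes. The members and lists were chosen with earlier results of these data known. Named were the 15 highest lincRNAs, those with the largest ratios, those on the list of known RNAs, those near listed regulators, the 8 highest with a divergent start within 1 kb, and those nearest the threshold. Genes named beyond these were chosen after their values were seen.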

Additional observations from a re-analysis of the deposited data

How the results depend on the processing

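No paired analysis was possible because the series has 1 group. The number of lincRNAs was 40, and it ran from 28 at a minimum of 2 TPM to 55 at 0.5 TPM. Without replicate 1 or without replicate 2 it was 49 or 51.

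The median level was 7.23 TPM, with 5.94 to 6.49 TPM when 1 library was left out. The 5 highest held 78.4% of the summed mean TPM. With the 5 highest picked anew by each measure, the share was 78.5% to 79.9% in a single library. By expected counts, again with its own 5 highest, it was 67.7%. The 4 lincRNAs at least 2-fold higher in replicate 1 became 9 with library totals, 7 on TPM with a pseudocount of 1, 10 on TPM with 0.1, and 1 at a summed count of at least 100. The 9 higher in replicate 2 became 6 with library totals, 5 on TPM with a pseudocount of 1 and 6 on TPM with 0.1, so the excess in replicate 2 turned over under these 3 settings. Library totals moved the median log2 ratio of all genes to 0.11, against -0.06 with TMM factors, and TPM moved that of genes at 1 TPM in both to 0.32. By TPM, 62.5% of the lincRNAs and 63.0% of all genes at 1 TPM in both were higher in replicate 1. With library totals 1700096K18Rik (-0.23) and A930029G22Rik (-0.53) were no longer beyond counting error, and 1810058I24Rik (0.25) was. The ratio of 1700001L05Rik reversed on TPM, to 0.12 with either pseudocount.

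The next settings were chosen after seeing the data. Without the 5 lincRNAs that share at least 50% of their sequence with another gene, the median was 5.47 TPM and the 5 highest held 75.2%. Without these and those that overlap an expressed gene, 29 remained, with a median of 8.67 TPM, 2 at least 2-fold higher in replicate 1 and 19 beyond counting error. Counts under about 100, as in Gm14321 and Gm10830, leave wide intervals, and 2 libraries give no estimate of variation between cultures.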
